A study of Mus musculus with 12 samples.

Results

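Interferon-stimulated genes are the genes that cells switch on after an interferon binds its receptor. The 46 genes described here are a list chosen by symbol, and each was found as a row of the gene table, among 27912 gene rows in all. They were 25 antiviral effectors, 4 nucleic acid sensors, 4 transcription factors, 9 interferon-gamma GTPases, 3 antigen-processing genes and the chemokine Cxcl10. Poly(A) RNA of whole liver was sequenced from 3 CCR1-KO mice (replicates 65, 66 and 67) and 3 WT mice (replicates 62, 63 and 64). CCR1 is a receptor for chemokines on monocytes, macrophages and other leukocytes. All 6 were male mice that entered the study at 8 weeks of age and ate the CL diet for 12 weeks, a fatty, cholesterol-laden feed that also contains cholate. WT animals were C57BL/6; the labels give neither how the CCR1 allele was made nor whether WT animals were littermates. Each library carries its own animal number, and nothing further in the labels says how animals were housed or sampled.

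Type I interferons act through the IFNAR receptor and a complex that contains STAT2 and IRF9 and binds interferon-stimulated response elements (ISREs) in front of antiviral genes. Interferon-gamma, made mainly by T and NK cells, acts through its own receptor and on promoters with gamma-activated sequences (GAS). Its strongest targets include the immunity-related GTPases and guanylate-binding proteins, large GTPases that attack vacuoles of intracellular microbes. In liver, both hepatocytes and non-parenchymal cells respond to interferons. Many genes answer to both kinds of interferon, so the classes used here overlap in biology.

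Libraries held 74699391 to 79154085 reads assigned to genes, and 17729 genes had enough reads to be tested. One read was worth 0.0113 to 0.0167 CPM (counts scaled to library size, with scaling factors from the trimmed mean of M values), and no member had fewer than 56 reads in any library. Major urinary protein genes took 3.36, 12.2 and 15.8% of reads in CCR1-KO livers, against 1.00, 1.05 and 0.927% in WT livers, so CCR1-KO 65 differed from the other CCR1-KO livers. Ccr1 itself had 11, 4 and 14 reads in CCR1-KO livers, against 100, 23 and 123 reads in WT livers. Its log2 fold change was −2.72 ± 0.76 (SE) with an adjusted p of 0.075 in edgeR's quasi-likelihood test, and the groups did not overlap. One of the gene models of Nnt, a mitochondrial transhydrogenase which carries a deletion in the C57BL/6J substrain, had 0 CPM in all CCR1-KO livers, against 25.3 ± 5.10 CPM in WT livers (SD, n = 3). The other Nnt model had 140.5 ± 10.8 CPM in CCR1-KO livers and 39.3 ± 6.51 CPM in WT livers (SD, n = 3 each). The CCR1 genotype and differences at Nnt or elsewhere in the background can therefore not be told apart. The 6 hepatocyte markers summed to 66303 to 89674 CPM in CCR1-KO livers and 68973 to 83333 CPM in WT livers, with 2 called higher and 0 lower. The 2 were Tat, an amino acid-degrading enzyme, and Serpina1e, an antitrypsin gene that had 1095, 9765 and 10598 CPM in CCR1-KO livers, against 211, 209 and 176 CPM in WT livers.

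The members' promoters are shown first, because they can hold the elements through which the 2 kinds of interferon act. The classes themselves were set by gene symbol, not by these elements. RefSeq (GRCm38.p6) gave a window of 250 bases before to 50 after the start site for 34 of the 46 members, and 12 had no entry. The ISRE core was searched on both strands as GAAA, any 2 bases and a further GAAA, and the GAS element as TTCNNNGAA, which reads the same on both strands. A gene counted if any of its windows held the motif. The ISRE core occurred in 20 of the 34 members (58.8%), against 3.99% of all 27025 genes with a window. The GAS element occurred in 9 of 34 (26.5%), against 9.55% of all genes with a window. Both motifs occurred in 5 of 34 (14.7%), against 0.614% of all genes with a window. A match describes letters in this window and is not evidence of binding, and a window without a match says nothing about the factor.

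Of the type I class, Ifit3, Isg15, Ifit2 and Oasl1 are shown as 100 bases from the part of the window before the start site, on the gene's strand, with motif matches in capitals. Ifit3 (chr19:34583359-34583458, plus strand), Ifit2 (chr19:34550444-34550543, plus strand) and Oasl1 (chr5:114923140-114923239, plus strand) are genes that fell in CCR1-KO livers, and Isg15 (chr4:156200829-156200928, minus strand) holds overlapping ISRE cores.
Ifit3: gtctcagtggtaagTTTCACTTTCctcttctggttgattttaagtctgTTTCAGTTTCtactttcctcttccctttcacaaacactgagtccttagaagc
Isg15: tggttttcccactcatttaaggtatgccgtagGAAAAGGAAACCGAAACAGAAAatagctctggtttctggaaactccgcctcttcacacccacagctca
Ifit2: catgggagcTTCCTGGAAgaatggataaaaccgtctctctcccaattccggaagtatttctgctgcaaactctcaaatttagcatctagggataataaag
Oasl1: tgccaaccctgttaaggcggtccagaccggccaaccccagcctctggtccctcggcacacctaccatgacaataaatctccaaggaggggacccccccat
Ifit3 held 2 ISRE cores on the opposite strand, and Isg15 held 3 that overlapped each other. In Ifit2 the window held a GAS match and no ISRE core, and in Oasl1 it held neither. Of the genes shown that fell, Ifit3 thus had the ISRE core in its window, and Ifit2 and Oasl1 did not. The part of these elements in the lower levels was not tested.

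Igtp (chr11:58199456-58199555), Irgm2 (chr11:58214857-58214956) and Irf1 (chr11:53769884-53769983), all on the plus strand, are shown because their windows hold the GAS letters and because CCR1-KO 65 was the highest of the 6 livers for each of them. Bst2, an antiviral effector, and Psmb8, an antigen-processing gene, also met both conditions and are not shown. Capitals again mark the GAS and ISRE matches.
Igtp: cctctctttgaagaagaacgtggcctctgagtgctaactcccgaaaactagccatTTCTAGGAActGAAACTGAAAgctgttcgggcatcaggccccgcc
Irgm2: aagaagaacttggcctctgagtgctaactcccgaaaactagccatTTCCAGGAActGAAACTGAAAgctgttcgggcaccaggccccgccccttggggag
Irf1: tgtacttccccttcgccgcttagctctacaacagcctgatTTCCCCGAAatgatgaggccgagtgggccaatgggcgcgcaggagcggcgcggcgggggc
In Igtp the GAS match lay at −45 to −37 and the ISRE core at −34 to −25 from the start site. In Irgm2 the same pair lay at −75 to −67 and −64 to −55. Over 60 bases around the pair, 58 bases (96.7%) were identical between Igtp and Irgm2, against 134 of 220 bases (60.9%) over the longer stretch shared by their windows. Among the GTPases, 6 of 7 windows held the ISRE core and 3 of 7 the GAS element, namely Igtp, Irgm2 and Gbp7. In the type I class the ISRE core was in 12 of 19 windows and the GAS element in 4 of 19.

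**Figure D1:**
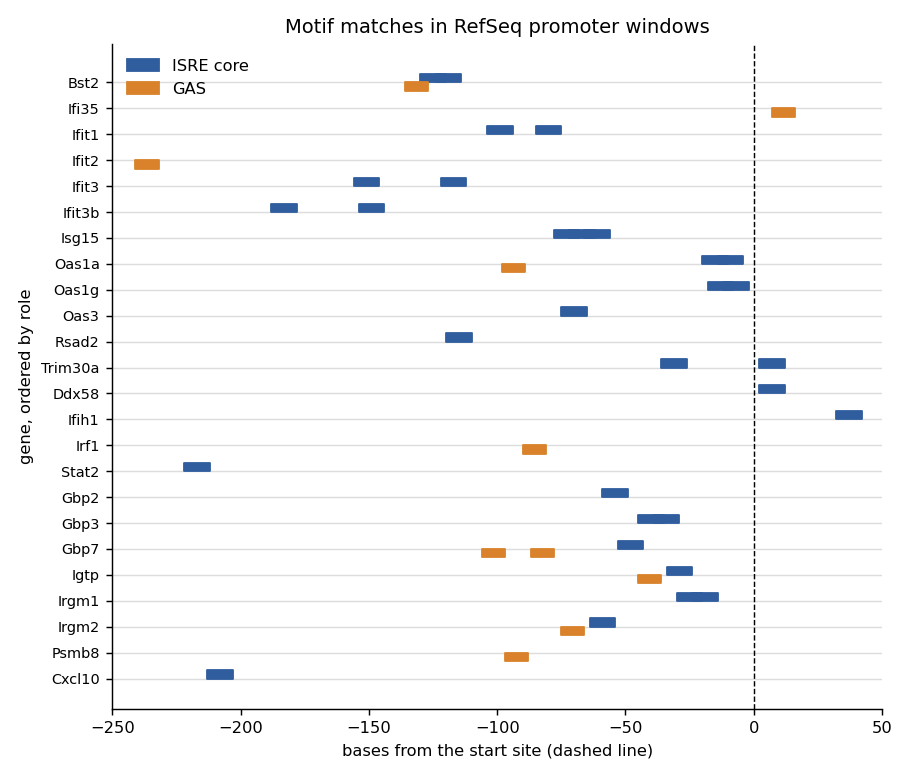
Position of ISRE core and GAS matches in bases from the start site (dashed line), for the members whose promoter window holds either motif, ordered by role. In Igtp and Irgm2 a GAS match lies just before an ISRE core, at −45 to −37 and −75 to −67.

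With all 6 livers, only antiviral effectors were called lower in CCR1-KO livers. Without CCR1-KO 65, members of other classes were called lower as well, as given below. All 46 members passed the filter on low counts. Oasl1, Ifit2, Ifit3 and Ifi27l2a fell at an adjusted p under 0.05, which is 4 of 46 (8.70%), against 3.61% of all tested genes called lower. No member rose at that threshold, against 2.83% of all tested genes called higher. At an unadjusted p under 0.05, 12 of 46 members were lower, against 13.2% of all tested genes. None was higher at that level, against 11.3% of all tested genes. DESeq2 called 6 of 46 members, all lower. It called 2548 of 17729 tested genes in either direction, and 46.4% of those calls were in the higher direction. The count of 4 rested on few livers: leaving out 1 library at a time gave 0 to 14 members lower. In whole liver, a smaller number of cells of one type and less RNA per cell cannot be told apart.

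Oasl1, an oligoadenylate synthetase-like protein that lacks synthetase activity, had 9.92, 11.9 and 10.5 CPM in CCR1-KO livers, against 18.0, 20.1 and 22.4 CPM in WT livers. Every CCR1-KO liver was below every WT liver by a wide margin, and the spread within each group was small. Oasl1 averaged 10.8 ± 1.00 CPM in CCR1-KO livers and 20.2 ± 2.24 CPM in WT livers (SD, n = 3 each). Its log2 fold change was −0.91 ± 0.14 (SE), with an adjusted p of 0.016 in edgeR's quasi-likelihood test. The call held in 4 of the 6 fits that left out a library and was lost without WT 63 or without WT 64, where adjusted p reached 0.078.

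Ifit2, an RNA-binding inhibitor of translation, had 4.33, 2.53 and 2.79 CPM in CCR1-KO livers, against 7.90, 7.60 and 11.2 CPM in WT livers. The groups did not overlap, and CCR1-KO 65 was the CCR1-KO liver nearest to WT. The mean was 3.22 ± 0.971 CPM in CCR1-KO livers and 8.88 ± 1.97 CPM in WT livers (SD, n = 3 each). Ifit2 fell with a log2 fold change of −1.46 ± 0.27 and an adjusted p of 0.024.

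Ifit3, whose human counterpart stabilises IFIT1 on RNA, had 19.5, 14.2 and 12.3 CPM in CCR1-KO livers, against 28.3, 25.4 and 31.3 CPM in WT livers. Again CCR1-KO 65 was the highest of its group and the groups did not overlap. Ifit3 fell with a log2 fold change of −0.88 ± 0.19 and an adjusted p of 0.035, and the call was lost when no filter on low counts was applied. Ifit3b, a near copy next to it, shares 61.8% of the 31-base words of Ifit3, so reads between the pair may have been split. Ifit3b had 7.40, 4.08 and 3.35 CPM in CCR1-KO livers, against 9.05, 9.51 and 10.3 CPM in WT livers, without overlap. Its log2 fold change was −0.96 ± 0.29 and its adjusted p 0.094.

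Ifi27l2a, a small interferon-induced membrane protein, had 1.86, 1.24 and 1.17 CPM in CCR1-KO livers, against 4.18, 3.47 and 7.04 CPM in WT livers. All CCR1-KO livers were lower, and WT 64 was the highest of the 6. Ifi27l2a had the largest negative fold change of the 46 members, with a log2 value of −1.78 ± 0.34 and an adjusted p of 0.027. Ifit2, Ifit3 and Ifi27l2a kept their calls only without CCR1-KO 65 and lost them in each of the other 5 fits that left out a library.

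**Figure D2:**
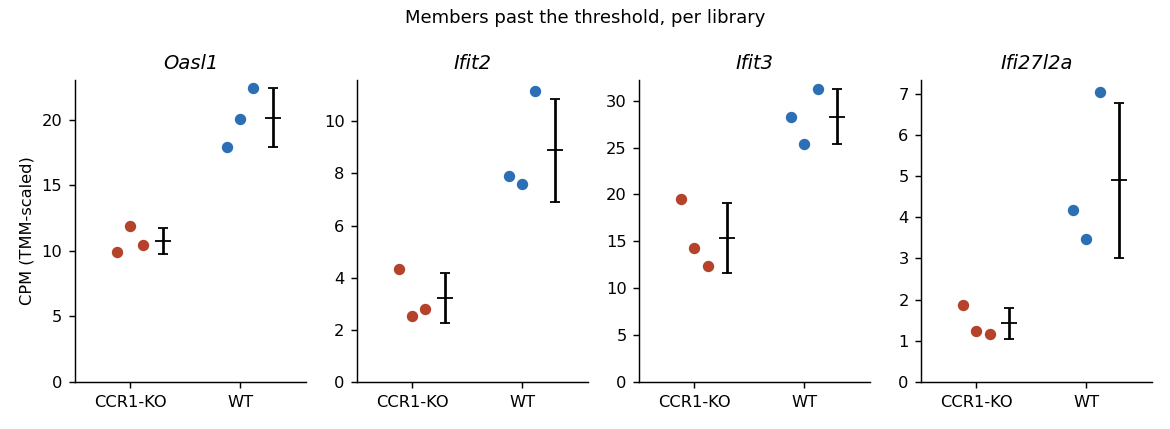
Level of the 4 members that fell, in TMM-scaled CPM, in CCR1-KO livers (left) and WT livers (right); points are single livers, with the mean and SD beside them. For Oasl1 the CCR1-KO livers sat between 9.92 and 11.9 CPM and the WT livers between 18.0 and 22.4 CPM.

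The other antiviral effectors lay mostly on the same side without passing the test. Of the 25 effectors, 20 had a log2 fold change below 0, and their median was −0.54, with a range of −1.78 to 0.70. Ifit1, which binds RNA that lacks cap methylation and blocks its translation, had 13.3, 11.6 and 9.29 CPM in CCR1-KO livers, against 14.8, 15.8 and 18.0 CPM in WT livers, with an adjusted p of 0.12. Isg15, a ubiquitin-like modifier, had 8.44, 8.69 and 5.94 CPM in CCR1-KO livers, against 9.07, 10.3 and 12.8 CPM in WT livers, with an adjusted p of 0.20. Neither pair of groups overlapped, but in both genes the gap between the nearest CCR1-KO and WT livers was smaller than the spread within groups. Mx1, a dynamin-like antiviral GTPase, had 3.40, 2.57 and 1.49 CPM in CCR1-KO livers, against 3.54, 4.53 and 5.17 CPM in WT livers, with an adjusted p of 0.17.

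The oligoadenylate synthetases make the messenger that activates RNase L. None of the members Oas1a, Oas1g, Oas2 and Oas3 passed the test. Oas2 had 6.15, 5.46 and 5.32 CPM in CCR1-KO livers, against 7.09, 6.63 and 7.67 CPM in WT livers, with an adjusted p of 0.24. Oas1g did not overlap between groups either, at 2.39, 1.99 and 1.02 CPM in CCR1-KO livers, against 3.37, 2.47 and 3.21 CPM in WT livers. Oas1a and Oas1g share sequence (68.7% of the 31-base words of Oas1a), so their separate values are uncertain. Cmpk2, a mitochondrial nucleotide kinase, had a log2 fold change of −0.74 ± 0.24 and an adjusted p of 0.11, and was called lower by DESeq2.

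Of the 25 effectors, 5 had a positive log2 fold change and none of these passed the test; Ifi35, Bst2 and Rtp4 turned below 0 without scaling factors and in limma on FPKM. Mx2, an Mx1 relative, had 10.6, 16.8 and 6.81 CPM in CCR1-KO livers, against 6.00, 7.12 and 7.92 CPM in WT livers, and the groups overlapped. Ifi27, of the same family as Ifi27l2a, had 101.4, 130.3 and 76.9 CPM in CCR1-KO livers, against 61.9, 82.5 and 78.5 CPM in WT livers, with an adjusted p of 0.21. Bst2, the tetherin that holds budding virions at the membrane, had 118, 74.2 and 79.4 CPM in CCR1-KO livers, against 69.5, 80.4 and 86.0 CPM in WT livers. Its log2 fold change of 0.21 turned to −0.034 without CCR1-KO 65. Per length, Bst2 and Ifi27 had the highest levels of the 46 members, at a mean of 86.9 and 55.0 FPKM over the 6 livers. Oas3, the longest of the synthetases, had the lowest at 0.195 FPKM.

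The nucleic acid sensors, which detect viral RNA or Z-form nucleic acids, had fold changes closer to 0. All 4 had a negative log2 fold change, from −0.31 to −0.10, and none passed the test. Ddx58 (RIG-I) had 24.6, 24.8 and 24.7 CPM in CCR1-KO livers, against 30.7, 27.1 and 34.2 CPM in WT livers, with an adjusted p of 0.16. Ifih1 (MDA5) had 26.0, 25.5 and 26.2 CPM in CCR1-KO livers, against 30.8, 27.2 and 31.9 CPM in WT livers, with an adjusted p of 0.28. Neither sensor overlapped between groups, and both varied less among CCR1-KO livers than among WT livers. Dhx58 (LGP2), their regulator, and Zbp1, the Z-nucleic acid sensor, overlapped between groups, with adjusted p of 0.65 and 0.89.

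In the 29 effectors and sensors, taken as the type I class, every CCR1-KO liver was below every WT liver in 15 genes (51.7%), against 17.4% of all tested genes. None of the 46 members had every CCR1-KO liver above every WT liver, against 15.2% of all tested genes. The 15 non-overlapping genes made up 32.6% of the 46 members, and no GTPase, transcription factor or antigen-processing gene was among them. The median log2 fold change with all 6 livers was −0.50 in the type I class, −0.38 in the GTPases, −0.39 over all 46 members and 0.00 over all tested genes. Without CCR1-KO 65 the median was −0.59 in the type I class and −0.64 in the GTPases. In that fit 9 of 29 type I genes and 3 of 9 GTPases were called lower. Without WT 62 the medians were −0.51 and −0.016. Which class had the lower median therefore depended on the livers included. A log2 fold change below 0 was found in 24 of 29 type I genes and 35 of the 46 members (76.1%), against 49.9% of all tested genes.

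**Figure D3:**
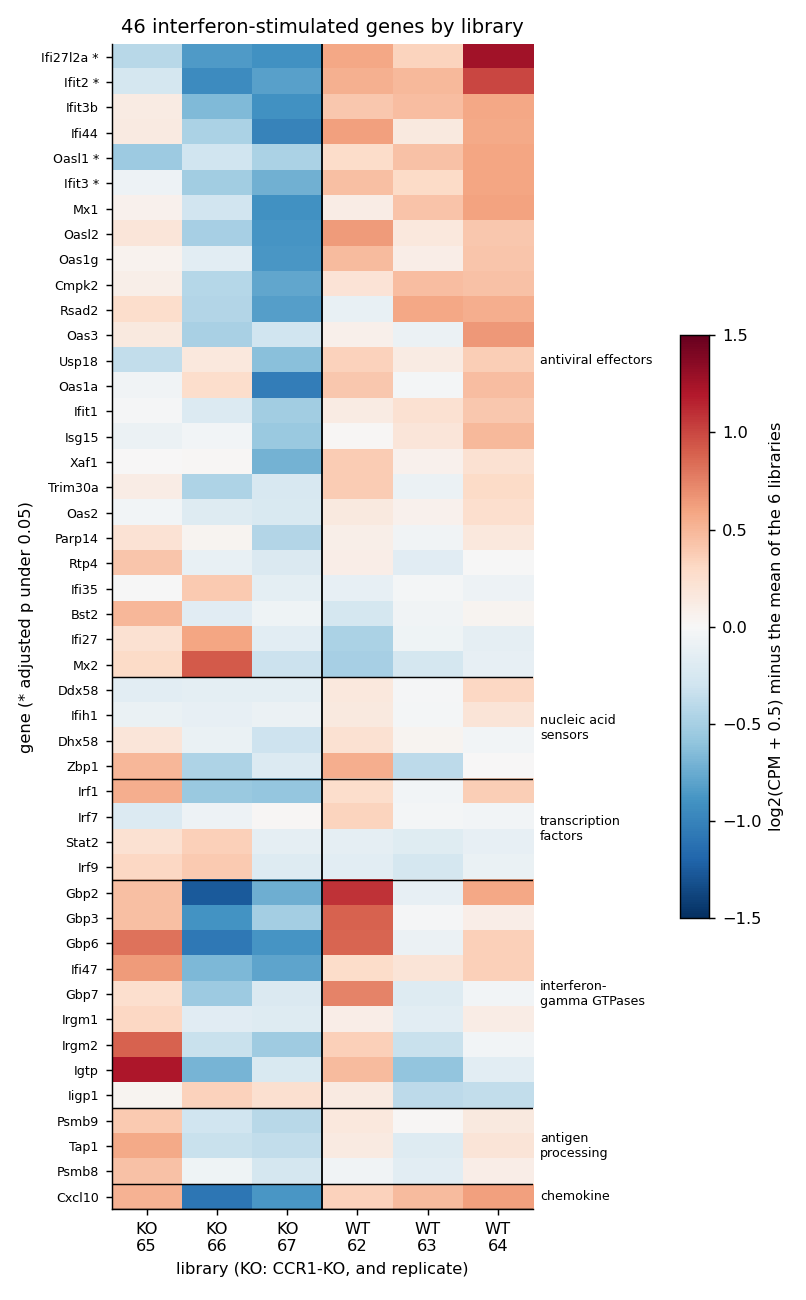
Level of each of the 46 members in each liver as a log2 deviation from the gene's mean over 6 livers, with CCR1-KO livers left of WT livers and genes ordered by role. Most of the 9 GTPase rows are highest in CCR1-KO 65 or WT 62. The mean over the 25 effector rows is 0.04 in CCR1-KO 65, −0.19 in CCR1-KO 66 and −0.59 in CCR1-KO 67.

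**Figure D4:**
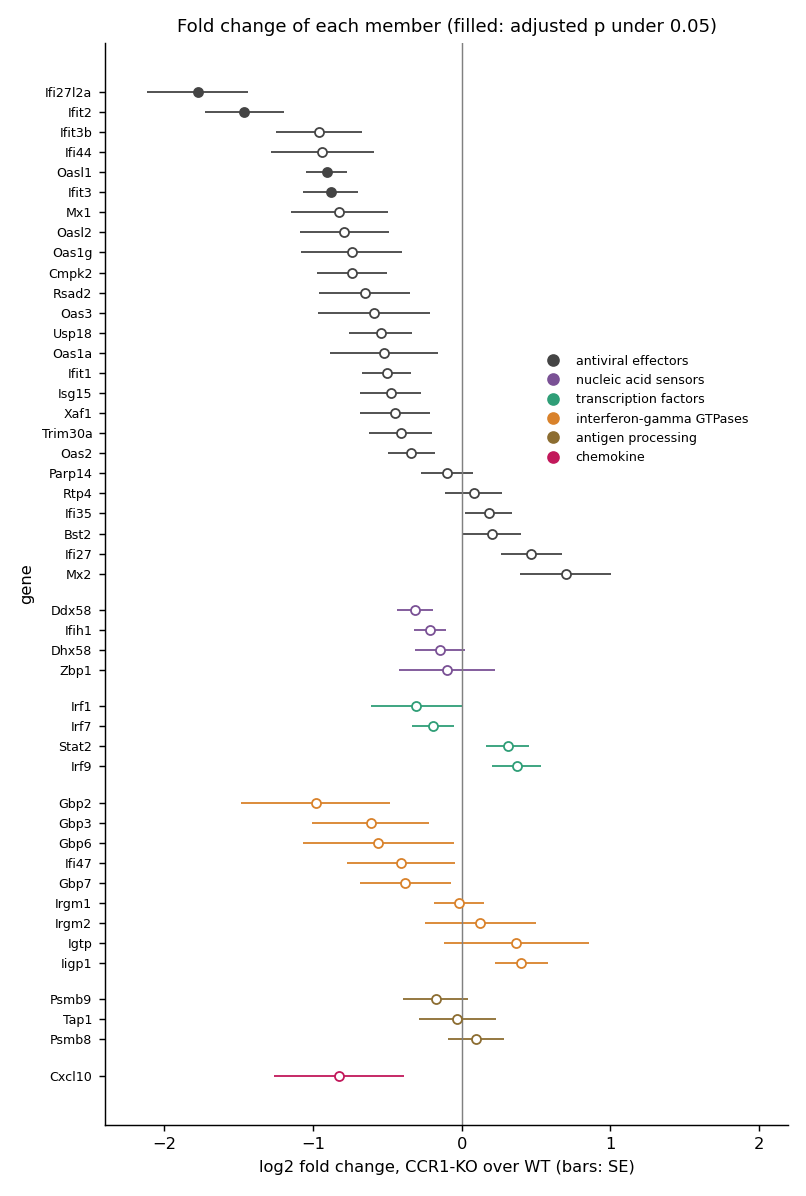
Log2 fold change of each of the 46 members, CCR1-KO over WT, from all 6 livers, coloured by role; lines are standard errors and filled points mark an adjusted p under 0.05. The 4 filled points lie between −1.78 and −0.88, and all of them are antiviral effectors.

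Transcription factors of the pathway did not fall as a group. Of the 4, 2 had negative and 2 positive log2 fold changes, of which Stat2 turned just below 0 in limma on FPKM, and none passed the test. Irf9, the DNA-binding subunit of the type I complex, had 49.6, 52.3 and 34.8 CPM in CCR1-KO livers, against 35.5, 33.1 and 37.1 CPM in WT livers, with an adjusted p of 0.21. Stat2, its partner, had 89.8, 98.5 and 69.7 CPM in CCR1-KO livers, against 69.9, 67.4 and 70.7 CPM in WT livers, with an adjusted p of 0.24. In both genes CCR1-KO 67 lay within the WT range, whereas the other CCR1-KO livers were above WT. Irf7, the amplifier of type I interferon production, had 28.2, 30.8 and 33.0 CPM in CCR1-KO livers, against 41.4, 31.9 and 31.7 CPM in WT livers, with an adjusted p of 0.45. Irf1, induced by interferon-gamma through its GAS element, had 37.8, 17.5 and 17.1 CPM in CCR1-KO livers, against 31.01, 25.1 and 33.4 CPM in WT livers. CCR1-KO 65 was the highest of the 6 livers and the other CCR1-KO livers the lowest. Irf1 had an adjusted p of 0.59 with all livers and of 0.021 without CCR1-KO 65, where its log2 fold change was −0.79 ± 0.16.

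Among the interferon-gamma GTPases, none of the 9 passed the test, and in none did the groups separate. A log2 fold change below 0 was found in 6 of the 9, and Igtp and Irgm2 joined them in limma on FPKM, Irgm2 also without scaling factors. Igtp (IRGM3), an immunity-related GTPase of the endoplasmic reticulum, had 102, 27.0 and 37.7 CPM in CCR1-KO livers, against 61.3, 28.96 and 39.3 CPM in WT livers. Irgm2, a Golgi-resident member of that family, had 102, 43.5 and 37.9 CPM in CCR1-KO livers, against 70.8, 43.4 and 53.6 CPM in WT livers. CCR1-KO 65 and WT 62 were the highest of their groups in both genes, while the other livers of the groups overlapped. Igtp had a log2 fold change of 0.37 ± 0.49 and an adjusted p of 0.69, and its sign turned to −0.42 without CCR1-KO 65. The Igtp and Irgm2 gene models overlap on chromosome 11 and share 16.4% of the 31-base words of Igtp, so their reads may not be fully separated.

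The guanylate-binding proteins showed the same 2 high livers. Gbp2, which coats pathogen vacuoles, had 9.40, 2.53 and 3.85 CPM in CCR1-KO livers, against 14.8, 6.13 and 10.4 CPM in WT livers, with an adjusted p of 0.27. Gbp3 had 14.2, 5.30 and 7.04 CPM in CCR1-KO livers, against 19.4, 10.1 and 11.04 CPM in WT livers, with an adjusted p of 0.38. In both genes CCR1-KO 65 exceeded 1 or more WT livers, and the other CCR1-KO livers were below all WT livers. Gbp6 had 39.3, 10.3 and 11.8 CPM in CCR1-KO livers, against 41.3, 20.9 and 28.6 CPM in WT livers, and 93.9% of its 31-base words occur in the overlapping model Gm43302. Iigp1 (IRGA6) departed from this pattern, at 293, 361 and 334 CPM in CCR1-KO livers, against 313, 216 and 219.6 CPM in WT livers. It was the GTPase with the highest level per length, at a mean of 44.9 FPKM over the 6 livers, and its adjusted p was 0.22. CCR1-KO 65 was the lowest of the CCR1-KO livers for Iigp1, whereas WT 62 was the highest of the WT livers.

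Counted over the class, CCR1-KO 65 was the highest CCR1-KO liver in 8 of 9 GTPases (88.9%), against 36.2% of all tested genes. WT 62 was the highest WT liver in 7 of 9 (77.8%), against 36.8% of all tested genes, and both held in 6 of 9 (66.7%), against 12.9%. In the type I class CCR1-KO 65 was highest in 19 of 29 genes (65.5%), WT 62 in 8 of 29 (27.6%) and both in 7 of 29 (24.1%). In 56 other type I targets, outside the members, these shares were 67.9, 50 and 35.7%. CCR1-KO 65 was also the highest CCR1-KO liver in all 3 antigen-processing genes. A high CCR1-KO 65 was therefore not particular to the GTPases. The median ratio of CCR1-KO 65 to the mean of the other CCR1-KO livers was 2.498 in the GTPases and 1.40 in the type I class. The median ratio of WT 62 to the mean of the other WT livers was 1.67 in the GTPases and 0.99 in the type I class. The difference between the CCR1-KO and WT groups made up a median of 25.2% of the log2 variance of a GTPase over the 6 livers. That share was 53.7% for a type I gene, against 33.4% over all tested genes. These shares describe all 6 livers, CCR1-KO 65 included, and the difference between the classes was not tested.

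**Figure D5:**
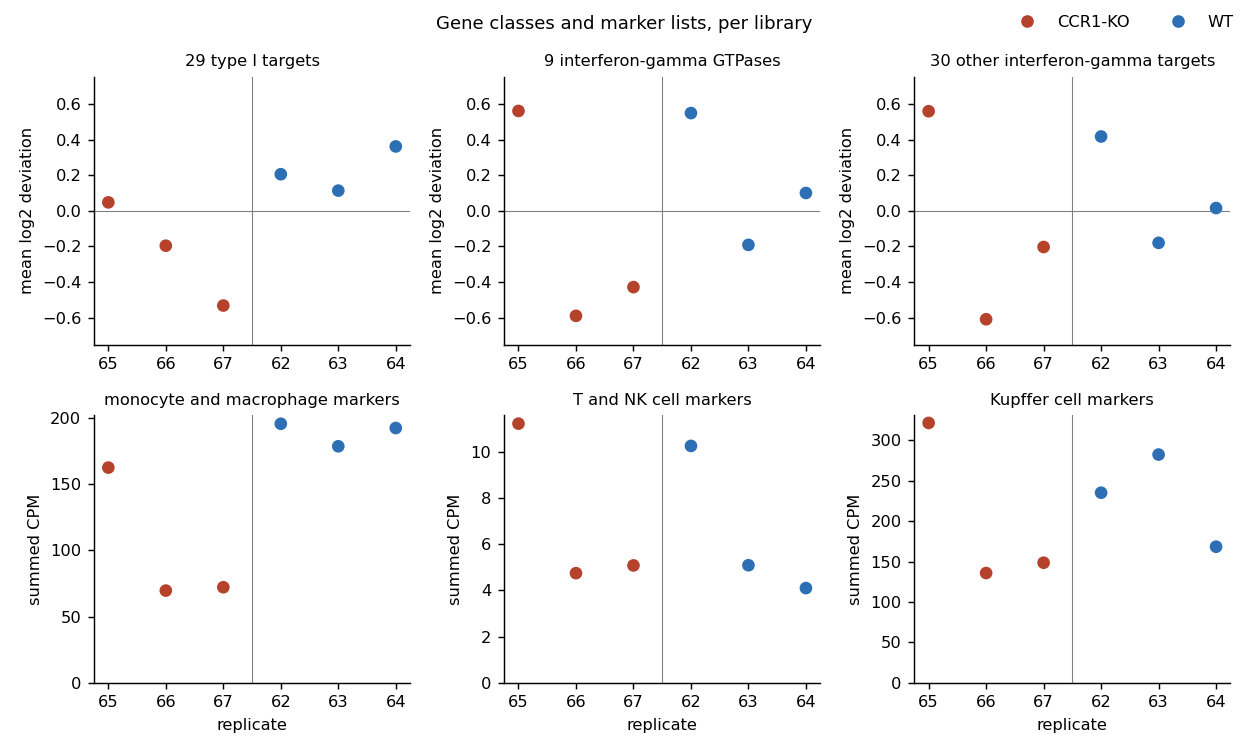
Upper panels give the mean log2 deviation of each gene class in each liver, and lower panels the summed CPM of cell type markers, with CCR1-KO livers left of WT livers. CCR1-KO 65 and WT 62 are the highest of their groups for the GTPases (0.56 and 0.55) and for T and NK markers (11.2 and 10.3 CPM), while the type I class lies between −0.53 and 0.05 in CCR1-KO livers and between 0.11 and 0.36 in WT livers.

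As a mean log2 deviation over the class, the type I genes stood at 0.05, −0.20 and −0.53 in CCR1-KO livers, against 0.21, 0.11 and 0.36 in WT livers. Here the groups did not overlap, with CCR1-KO 67 lowest and WT 64 highest. The GTPases stood at 0.56, −0.59 and −0.43 in CCR1-KO livers, against 0.55, −0.19 and 0.10 in WT livers, so that the groups overlapped. A list of 30 other interferon-gamma targets, outside the members, stood at 0.56, −0.61 and −0.20 in CCR1-KO livers, against 0.42, −0.18 and 0.02 in WT livers.

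No antigen-processing gene passed the test, nor did Cxcl10. Psmb8 and Psmb9, immunoproteasome subunits, and Tap1, the peptide transporter, had adjusted p of 0.79, 0.67 and 0.96. Tap1 had 48.2, 25.7 and 24.9 CPM in CCR1-KO livers, against 35.5, 28.3 and 37.0 CPM in WT livers, with CCR1-KO 65 the highest of the 6. The Psmb9 and Tap1 gene models overlap on opposite strands. Cxcl10, the chemokine that draws CXCR3-positive T cells, had 9.09, 2.65 and 3.16 CPM in CCR1-KO livers, against 7.98, 8.78 and 9.75 CPM in WT livers. CCR1-KO 65 lay inside the WT range, and the other CCR1-KO livers lay far below it. Cxcl10 had a log2 fold change of −0.83 ± 0.44 and an adjusted p of 0.29 with all livers.

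Without CCR1-KO 65, 14 members were called lower (30.4%), against 7.67% of all genes tested in that fit, and no member was called higher, against 5.5%. They were the 4 named above and Ifit3b, Oasl2, Rsad2, Ifi44, Cmpk2, Irf1, Ifi47, Gbp2, Gbp6 and Cxcl10. Cxcl10 then had a log2 fold change of −1.60 ± 0.20 and an adjusted p of 0.0051. Ifi47, another immunity-related GTPase, had 27.8, 10.9 and 10.02 CPM in CCR1-KO livers, against 21.5, 20.4 and 22.9 CPM in WT livers, and an adjusted p of 0.0057 without CCR1-KO 65. Gbp2 then had a log2 fold change of −1.71 ± 0.40 with an adjusted p of 0.035, and Gbp6 had −1.45 ± 0.28 with 0.020. These values compare 2 CCR1-KO livers with 3 WT livers. The fit without CCR1-KO 66, without CCR1-KO 67 or without WT 62 called Oasl1 alone, and the fit without WT 63 or without WT 64 called no member.

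Markers of several other cell types differed between livers of 1 group. Summed over the T and NK cell list, of which 13 of 14 genes were tested, levels were 11.2, 4.75 and 5.09 CPM in CCR1-KO livers, against 10.3, 5.09 and 4.10 CPM in WT livers. The 2 livers with high GTPases, CCR1-KO 65 and WT 62, were thus the highest of their groups for T and NK markers, and both were highest in 9 of the 13 genes. The same 2 livers were also the highest of their groups for endothelial, neutrophil and monocyte and macrophage markers, so the match was not limited to T and NK markers. Within the list Cd4, the T-helper coreceptor, was called higher, at 1.61, 2.64 and 2.23 CPM in CCR1-KO livers, against 0.377, 0.441 and 0.296 CPM in WT livers, and did not share the pattern of the list. Cd3d, Cd8b1, Lck and Ncr1 had 0 reads in at least 1 CCR1-KO liver, in each case 66 or 67. Ifng, the gene of interferon-gamma, had 11, 0 and 0 reads in CCR1-KO livers, against 6, 0 and 5 reads in WT livers, where 3 reads is the floor. The part of these cells in the GTPase pattern was not tested.

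Kupffer cell markers summed to 322, 136 and 149 CPM in CCR1-KO livers, against 235, 282 and 168 CPM in WT livers, with 0 of 9 genes called. Monocyte and macrophage markers summed to 163, 69.7 and 72.2 CPM in CCR1-KO livers, against 196, 179 and 193 CPM in WT livers, with Trem2 called lower. Both sums had CCR1-KO 65 far above the other CCR1-KO livers, whereas the highest WT liver was WT 63 for Kupffer markers and WT 62 for monocyte and macrophage markers. Endothelial markers summed to 231, 171 and 175 CPM in CCR1-KO livers, against 258, 236 and 194 CPM in WT livers, and both 65 and 62 were highest in 5 of 8 genes. Neutrophil markers summed to 4.29, 2.84 and 1.96 CPM in CCR1-KO livers, against 4.39, 3.86 and 3.69 CPM in WT livers, and 5 of the 6 genes had 0 reads in at least 1 library. B cell markers summed to 5.89, 1.76 and 2.76 CPM in CCR1-KO livers, against 4.37, 4.88 and 3.13 CPM in WT livers. The stellate, bile duct, and monocyte and macrophage sums did not overlap between the groups. Stellate cell markers summed to 205, 186 and 210 CPM in CCR1-KO livers, against 392, 431 and 910 CPM in WT livers, with 6 of 8 genes called lower. Bile duct cell markers summed to 49.1, 42.3 and 48.4 CPM in CCR1-KO livers, against 141, 118 and 190.3 CPM in WT livers, with 1 of the 5 genes tested called lower. The called gene was Spp1, which made up most of that sum. Spp1 had 43.8, 37.1 and 44.5 CPM in CCR1-KO livers, against 134, 111 and 180 CPM in WT livers. Krt19, Epcam and Sox9 were lower without overlap but were not called, and Krt7 overlapped between groups. Markers of plasmacytoid dendritic cells, which make type I interferon, summed to 5.73, 2.54 and 3.23 CPM in CCR1-KO livers, against 5.83, 5.35 and 5.98 CPM in WT livers, and none was called. Most of that sum came from Lair1, which other leukocytes also carry, at 4.19, 1.64 and 1.76 CPM in CCR1-KO livers, against 4.24, 3.29 and 4.50 CPM in WT livers. The more specific Siglech overlapped between groups, at 0.638, 0.398 and 0.552 CPM in CCR1-KO livers, against 0.656, 0.915 and 0.455 CPM in WT livers. Ccr9 also overlapped, with a log2 fold change of 0.58. Spib did not overlap, at 0.288, 0.199 and 0.117 CPM in CCR1-KO livers, against 0.595, 0.407 and 0.659 CPM in WT livers. It had 7 to 58 reads per library and an adjusted p of 0.14 in edgeR's quasi-likelihood test. Cox6a2 and Klk1 had 0 reads in some libraries. The part of these cell types in the members' differences was not tested.

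Upstream of the members, interferon genes were at the edge of detection. Of 21 interferon genes sought, 5 were matched and none had enough reads to be tested. Apart from Ifng, these were Ifna2, Ifnab, Ifnk and Ifnz, with at most 8 reads in any library. Ifnb1 and the remaining interferon genes sought matched no gene row by symbol, so they have no values here. Of 11 receptor and JAK-STAT genes, 1 was called lower (9.09%) and none higher; with 3.61% of all tested genes called lower, a single call in a list of this size is near the background. Il10rb, a chain shared by the receptors of interferon-lambda and IL-10, had 5.44, 3.91 and 4.72 CPM in CCR1-KO livers, against 9.72, 9.28 and 8.14 CPM in WT livers. The groups were far apart, and Il10rb fell with a log2 fold change of −0.95 ± 0.18 and an adjusted p of 0.028, a call kept only without CCR1-KO 65 when a library was left out. Ifngr2, the signalling chain of the interferon-gamma receptor, had an adjusted p of 0.14.

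None of 11 negative regulators passed the test. Ptpn6 (SHP-1), a phosphatase of JAK-STAT signalling, had an adjusted p of 0.13, and Cish, a feedback inhibitor, one of 0.18. Of 16 genes of upstream sensing, 1 was called higher, against 2.83% of all tested genes, and none lower. Irf3, which drives the first interferon transcripts, had 56.0, 65.2 and 52.5 CPM in CCR1-KO livers, against 40.4, 42.6 and 38.1 CPM in WT livers, without overlap. Irf3 rose with a log2 fold change of 0.52 ± 0.12 and an adjusted p of 0.048. That call was lost without scaling factors (log2 fold change 0.22, adjusted p 0.48), in limma on FPKM and without the filter, and in 5 of the 6 fits that left out a library.

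Other targets of type I interferon, 56 genes outside the members, were mostly lower in CCR1-KO livers without passing the test. Of these, 46 (82.1%) had a log2 fold change below 0, against 49.9% of all tested genes, and the median was −0.24. In the test 4 of 56 (7.14%) were called lower, against 3.61% of all tested genes, and none higher. Samd9l, a restriction factor for poxviruses, had 15.5, 9.81 and 8.77 CPM in CCR1-KO livers, against 25.4, 20.4 and 28.7 CPM in WT livers, with a log2 fold change of −1.12 ± 0.24 and an adjusted p of 0.035. Ly6e, a membrane protein that blocks coronavirus entry, had 182, 153 and 131 CPM in CCR1-KO livers, against 289, 220.0 and 308 CPM in WT livers, with an adjusted p of 0.041. Oas1c, a synthetase-family gene, fell with a log2 fold change of −1.29 ± 0.29 and an adjusted p of 0.041, and Lgals3bp, a secreted galectin ligand, fell with −0.76 ± 0.18 and 0.047. In all 4 genes the groups did not overlap. When a library was left out, each of the 4 calls was kept only without CCR1-KO 65, and each was lost with no filter on low counts. Lgals3bp also missed the threshold with the size factors of DESeq2, at an adjusted p of 0.051.

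Other targets of interferon-gamma gave 0 of 30 calls with all livers. Their median log2 fold change was −0.06 with all livers and −0.82 without CCR1-KO 65. The 2 of smallest p were Tapbpl, a tapasin-related peptide editor, with an adjusted p of 0.091, and Serping1, the C1 inhibitor, with 0.13. Tgtp1, an immunity-related GTPase, had 36.5, 3.43 and 5.12 CPM in CCR1-KO livers, against 19.7, 5.69 and 10.4 CPM in WT livers. Ciita, the switch for MHC class II genes, had 4.43, 0.352 and 1.05 CPM in CCR1-KO livers, against 2.59, 1.37 and 2.15 CPM in WT livers. As in the GTPases, CCR1-KO 65 and WT 62 were the highest of their groups in both genes. Both 65 and 62 were highest in 19 of the 30 genes (63.3%), against 12.9% of all tested genes.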

How the data were processed

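Whole-liver poly(A) RNA libraries were made with a strand-marking kit, per the labels' protocols. The authors deposited a gene table with read counts and FPKM values per library; per the submitters' processing notes cutadapt 1.9, HISAT2 2.2.1 and StringTie 2.1.6 were used, and the build listed there is human although the identifiers are mouse. No source used here gives the strand setting of the counting. Of 12 libraries, 6 were not analysed here.

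Counts were fitted with edgeR 4.0.16 (R 4.3.3), TMM scaling, filterByExpr (minimum count 10) and the quasi-likelihood test. P-values were adjusted over all tested genes by Benjamini-Hochberg, with a threshold of 0.05. Alternatives were DESeq2 1.42.0, other scalings, no filter, limma 3.58.1 on log2(deposited FPKM + 0.1, 0.5 or 1) and leaving out each library. With 3 against 3 an exact permutation test cannot go below 0.10. Log2 deviations used CPM + 0.5. Within each group, no 2 libraries agreed within sampling noise.

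The members and the other gene lists were chosen with earlier results of these data known. Members were named if called, among the 3 of smallest p or the 2 of highest FPKM of their role; Cxcl10 and Ifng always. One item that the rule also names is not reported here. Others named were chosen after their values were seen.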

Additional observations from a re-analysis of the deposited data

How the results depend on the processing

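With other tools or scalings the count of members called lower was 3 to 6, and no setting called a member higher. Leaving out 1 library gave 0 to 14 members lower, 0 to 19 other pathway genes lower and 0 to 1 higher, and 66 to 1409 of all genes lower and 36 to 1010 higher, against 640 and 501 with all libraries. DESeq2 called 9 other pathway genes lower and 3 higher, and 1366 of all genes lower and 1182 higher. Without the filter 1 pathway gene was lower and 0 higher, with 421 and 314 of all genes. Without TMM factors 0 pathway genes and 219 of all genes were higher. For limma on FPKM + 0.1, + 0.5 and + 1, 0 pathway genes were higher each time, 9 were lower at + 0.5 and + 1, and all genes gave 969, 1088 and 1124 lower and 217, 223 and 225 higher. Calls in the higher direction made up 43.9% of all calls with TMM factors, 20.4% without them and 17.0% for limma at + 0.5. The median of all genes shifted by −0.30 without TMM factors and by −0.27, −0.23 and −0.19 in limma. Signs reversed without TMM factors for Ifi35 (−0.12), Bst2 (−0.063), Rtp4 (−0.18), Irgm2 (−0.081) and Psmb8 (−0.16). In limma at + 0.1, + 0.5 and + 1 they reversed for Ifi35 (−0.15, −0.14, −0.13), Bst2 (−0.13 each), Rtp4 (−0.25, −0.23, −0.22), Stat2 (−0.014, −0.012, −0.010), Igtp (−0.12, −0.11, −0.10), Irgm2 (−0.30, −0.28, −0.27) and Psmb8 (−0.24, −0.22, −0.20). With 1 library left out, log2 fold changes ran from −0.034 to 0.33 for Bst2, −0.25 to 0.063 for Parp14, −0.15 to 0.20 for Rtp4, −0.45 to 0.20 for Zbp1, −0.42 to 0.71 for Igtp, −0.20 to 0.065 for Irgm1, −0.46 to 0.37 for Irgm2, −0.13 to 0.24 for Psmb8 and −0.41 to 0.13 for Tap1, and the antigen-processing median relative to all genes from −0.39 to 0.14. The cause was not tested. No paired analysis was possible because CCR1-KO and WT livers share no replicate number. The interferon genes that matched a row had too few reads to be tested at this depth.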

Other observations

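Ifi27l2b, a relative of Ifi27l2a that lies next to it on chromosome 12 and is not among the members, was looked up after its values were seen. It had 8.67, 3.95 and 3.58 CPM in CCR1-KO livers, against 51.2, 34.6 and 44.3 CPM in WT livers, without overlap. Its fitted level in CCR1-KO livers was 12.5% of that in WT livers (SE 0.35 on the log2 scale), with an adjusted p of 0.0085 in edgeR's quasi-likelihood test, and the call held in all 6 fits that left out a library. Of the 31-base words of Ifi27l2a, 6.0% occur in Ifi27l2b. Ifi27, on the other side of Ifi27l2a, had higher means in CCR1-KO livers (103 CPM) than in WT livers (74.3 CPM) but did not pass the test. Neighbouring genes of this family therefore had fold changes of opposite sign in the same livers.

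Cd74, the invariant chain of MHC class II and a target of interferon-gamma, had 142, 20.2 and 38.9 CPM in CCR1-KO livers, against 110.4, 72.0 and 118 CPM in WT livers. Its adjusted p was 0.62 with all livers and 0.018 without CCR1-KO 65, where its log2 fold change was −1.76 ± 0.33. Gbp2b, a guanylate-binding protein, had 8.09, 0.674 and 1.97 CPM in CCR1-KO livers, against 1.66, 0.621 and 0.273 CPM in WT livers. It did not pass the test, with an adjusted p of 0.22.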
